A study of Mus musculus with 9 samples.

Results

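The genes described here are 39 genes of DNA double-strand break repair, chosen by symbol from a list of known repair genes, out of 54429 gene symbols in the count table. All 39 were found and all 39 passed the filter on low counts, as did 15931 genes in all. They were sorted into 11 genes of break sensing and signalling, 15 of homologous recombination, 9 of end joining and 4 of the Fanconi pathway. RNA was sequenced from whole NB9464 tumors, which grow from a mouse neuroblastoma line with amplified MYCN, after implantation of 4000000 cells under the skin of syngeneic wild-type C57BL/6 mice aged 4 to 6 weeks. From a volume of 250 mm3 the tumors received vehicle, R788 + anti-PDL1, or Rad + R788 + anti-PDL1, with 3 tumors in each group and 4 doses between day 28 and day 37. R788 (50 mg/kg) is an oral prodrug that inhibits the kinase Syk, and anti-PDL1 is a checkpoint-blocking antibody. Rad is radiation of 10 Gy, for which the paper's methods give 1 dose. Both treated groups carried the same drug and antibody, and no group with radiation alone was analysed here. The labels do not say how long after irradiation the tumors were taken, and all tumors came from 1 cell line.

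A double-strand break is first bound by the Mre11-Rad50-Nbn complex, which activates the kinase Atm, while resected single-stranded DNA activates Atr. Mdc1, Rnf8, Rnf168 and Trp53bp1 then mark the chromatin around the break. In S and G2 phase the ends can be resected and repaired from the sister chromatid by homologous recombination, through Brca1, Bard1, Palb2, Brca2, Rad51c and Rad51d. In any phase the Ku proteins, Prkdc and the Xrcc4-Lig4 ligase can rejoin the ends directly. The Fanconi proteins handle crosslinked DNA and feed it into recombination. Much of the control of these proteins is by phosphorylation and ubiquitin, which RNA does not show.

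Library totals ranged from 18276683 to 23397886 counts, and 3 counts corresponded to between 0.115 and 0.221 CPM (a gene's count per 1000000 counts of its library, after scaling by the trimmed mean of M values, TMM). Rad + R788 + anti-PDL1 replicate 1 stood apart from the other 8 libraries. Its Pearson correlation with them, over log2 CPM of the genes tested, was 0.865 to 0.907, against 0.937 to 0.980 among the 8. Many results for the irradiated group are therefore given with and without it. Differences of that group given as a single value include this library and may depend on it. The same holds for the counts of genes at an unadjusted p or without overlap. Against the stated cell type, the sympathetic neuroblast marker Th was at 0 counts in all 9 libraries, and Dbh was at or below 0.05 CPM. Hand2, another such marker, ranged from 325 to 867 CPM. The tumors were whole tissue, so fewer cells of a type and less RNA per cell cannot be told apart in any value below. The labels do not say that the replicates were separate mice, so p-values measure the spread between these libraries.

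No repair gene passed an adjusted p of 0.05 in any of the 3 comparisons, by edgeR's quasi-likelihood test with Benjamini-Hochberg adjustment over all 15931 genes. The lowest adjusted p of the 39 was 0.157 for R788 + anti-PDL1 against vehicle, where 0.678% of all genes tested were called. It was 0.265 for Rad + R788 + anti-PDL1 against vehicle, with 0.0439% of genes called, and 0.222 for the irradiated group against R788 + anti-PDL1, with 0.00628% called. At an unadjusted p under 0.05 the 3 comparisons held 6, 7 and 9 of the 39 genes. By direction these were 1 higher and 5 lower, against a background of 5.96% and 5.69% of all genes, then 0 higher and 7 lower, against 7.71% and 5.51%, and then 3 higher and 6 lower, against 11.7% and 6.65%. DESeq2 called Lig4 lower in R788 + anti-PDL1 than in vehicle and Brca1 lower in the irradiated tumors than in R788 + anti-PDL1, and no other repair gene. limma-voom called none, while limma-voom with a weight for each library called 9, 7 and 11 of the 39. Those weights ran from 0.0775 for Rad + R788 + anti-PDL1 replicate 1 to 5.38 for R788 + anti-PDL1 replicate 3. Single genes below are therefore described by their levels, and none is reported as changed.

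**Figure D1:**
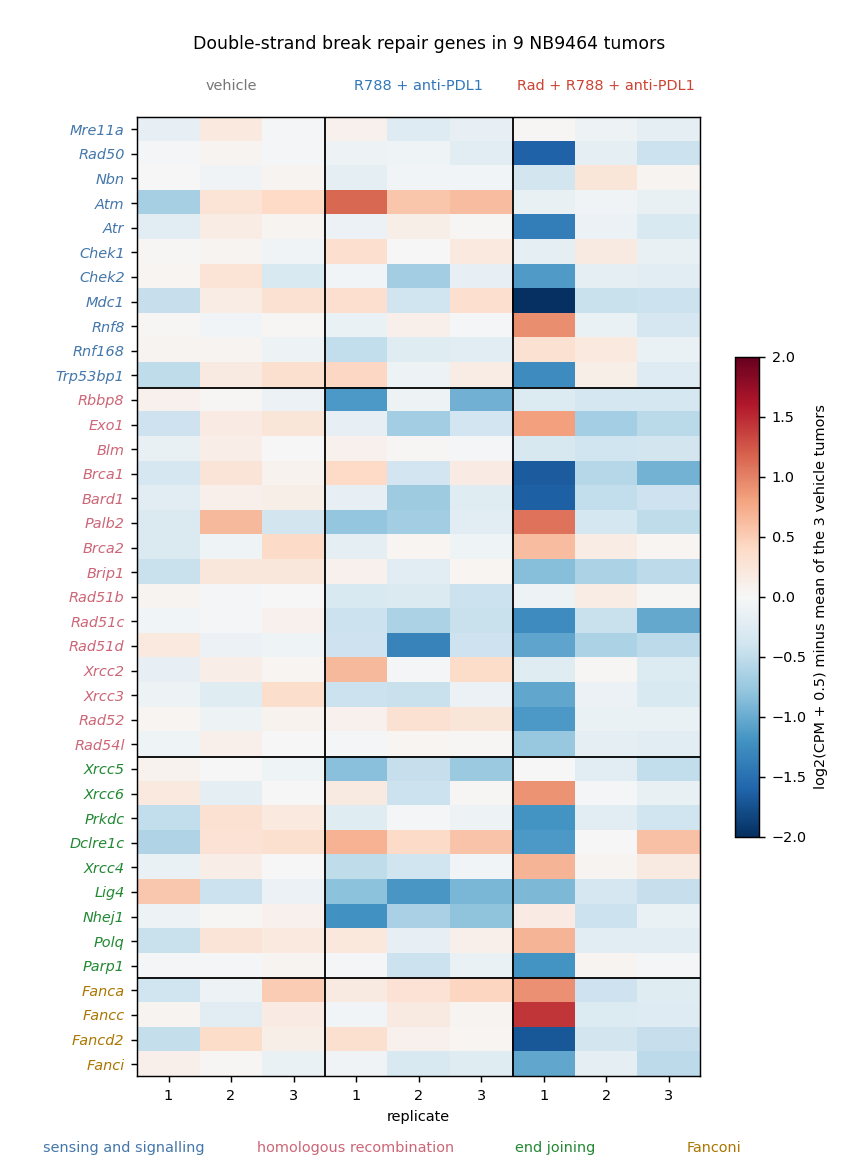
Level of each of the 39 repair genes (rows, italic, coloured by role) in each of the 9 tumors (columns), as log2(CPM + 0.5) minus the mean of the 3 vehicle tumors, with colours limited to -2 and 2. Blue cells gather in the homologous recombination rows of the Rad + R788 + anti-PDL1 tumors, and replicate 1 of that group differs from its fellows in both directions, with 14 of the 39 genes more than 1 log2 unit from the mean of the other two.

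The groups by role moved by modest amounts. The median log2 fold change of the 15 recombination genes was -0.35 in R788 + anti-PDL1 and -0.37 in Rad + R788 + anti-PDL1, each against vehicle, where the medians of all genes tested were -0.02 and 0.05. For the 9 end-joining genes the same medians were -0.19 and -0.13, for the 11 sensing genes -0.02 and -0.19, and for the 4 Fanconi genes 0.09 and -0.19. Between the treated groups, irradiated minus not irradiated, the recombination genes had a median of -0.38 and the end-joining genes one of 0.38. Without Rad + R788 + anti-PDL1 replicate 1 these last medians were -0.20 and 0.21. These comparisons share groups, so the values are not independent of each other.

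The groups did not overlap for some of the genes. In Rad + R788 + anti-PDL1 against vehicle, all 3 treated tumors were below all 3 vehicle tumors for 9 of the 15 recombination genes, and 0 were above. The same held for 11.2% of all genes tested, and 9.27% were above without overlap. The 9 were Rbbp8, Blm, Brca1, Bard1, Brip1, Rad51c, Rad51d, Rad52 and Rad54l. Of the other 24 repair genes, Rad50 and Fanci also lay wholly below vehicle, and no end-joining gene did. Of 15 further recombination genes listed beside these, 2 lay wholly below vehicle, a share of 13.3%. With R788 + anti-PDL1 against vehicle, 4 of 9 end-joining genes (Xrcc5, Lig4, Nhej1 and Parp1), 3 of 15 recombination genes (Rad51b, Rad51c and Rad51d) and 2 of 11 sensing genes (Rad50 and Rnf168) lay wholly below vehicle, against a background of 16.5%. A total of 3 repair genes (Atm, Rad52 and Dclre1c) lay wholly above vehicle there, against 13.6%. Between the treated groups, 9 of 39 genes were wholly lower with radiation, against 13.2%, and 4 were wholly higher, against 14.2%. An exact permutation test of 3 against 3 tumors cannot give a two-sided p below 0.1.

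The promoters of these genes were searched for a sequence feature that the choice of genes did not use. RefSeq promoter windows of GRCm38.p6, from 250 bases before to 50 bases after each gene's start, were found for 31 of the 39 genes. The letters TTCCCGC or TTGGCGC, which resemble sites of the cell-cycle factors of the E2F family, stood on either strand in 15 of the 31. They stood in 6 of 9 sensing, 5 of 11 recombination, 3 of 8 end-joining and 1 of 3 Fanconi genes with a window. Over the whole table, 7.79% of genes held either in a window, as did 8 of 20 cell-cycle genes. TTCCCGC alone stood in 4.60% of windows and TTGGCGC in 2.45%, and a match to the first can share end letters with a match to the second. The 4 stretches below hold a match before the start site and lie in no GENCODE exon. They are given on the gene's own strand, with the match in capitals, which reads GCGGGAA or GCGCCAA where it lies on the other strand.
Chek2, chr5:110839801-110839867, plus strand: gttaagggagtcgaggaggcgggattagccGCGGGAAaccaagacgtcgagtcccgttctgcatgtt
Mdc1, chr17:35841339-35841497, plus strand: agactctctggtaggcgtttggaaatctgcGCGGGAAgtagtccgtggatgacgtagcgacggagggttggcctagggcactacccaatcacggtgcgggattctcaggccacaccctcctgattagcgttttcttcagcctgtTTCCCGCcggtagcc
Brca2, chr5:150522423-150522489, plus strand: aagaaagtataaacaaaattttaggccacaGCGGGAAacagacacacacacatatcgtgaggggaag
Rad51c, chr11:87404986-87405052, minus strand: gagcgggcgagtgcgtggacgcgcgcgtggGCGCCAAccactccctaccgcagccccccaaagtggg
Mdc1 held 2 matches, of which the nearer ended 8 bases before the start site. The match ended 61 bases before the start site in Rad51c, 145 in Chek2 and 161 in Brca2. The fold changes were set beside the presence of a match, as a description. In Rad + R788 + anti-PDL1 against vehicle the median log2 fold change was -0.19 over the 15 genes with a match and -0.26 over the 16 without one. Between the treated groups it was -0.22 with a match and -0.09 without, and in R788 + anti-PDL1 against vehicle -0.06 and -0.09. Among the 4 genes printed, Rad51c, Mdc1 and Chek2 had lower mean levels with radiation than in vehicle, and Brca2 had a higher one.

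Among the sensing genes, Atm showed a pattern of its own. Atm (chr9:53439149-53536740, minus strand, GRCm38), the kinase that opens the signalling response to breaks, had 24.4, 46.9 and 51.3 CPM in vehicle replicates 1 to 3. It had 86.9, 57.1 and 60.2 CPM in R788 + anti-PDL1 and 35.2, 37.0 and 35.03 CPM in Rad + R788 + anti-PDL1. The R788 + anti-PDL1 tumors were thus above every tumor of both other groups, and the irradiated tumors lay inside the vehicle range. The log2 difference from vehicle was 0.74 ± 0.29 (SE, edgeR adjusted p = 0.357) in R788 + anti-PDL1. It was 0.49 without vehicle replicate 1, the lowest vehicle tumor, and 0.44 by limma-voom with library weights. With radiation added, Atm was lower than in R788 + anti-PDL1 by a log2 difference of -0.93 ± 0.29 (edgeR adjusted p = 0.222), and by -0.91 without Rad + R788 + anti-PDL1 replicate 1.

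Mdc1, the scaffold that binds phosphorylated H2A.X, was the most abundant sensing gene per kilobase of exon, at 28.7 CPM per kb in vehicle. Its level was 152, 230 and 258 CPM in vehicle, 263, 159 and 262 CPM in R788 + anti-PDL1, and 50.0, 152 and 155 CPM in Rad + R788 + anti-PDL1. The lowest value came from Rad + R788 + anti-PDL1 replicate 1, and the other two irradiated tumors were close to the lowest tumor of each other group. The log2 difference between the treated groups was -0.94 ± 0.42 (edgeR adjusted p = 0.271), and -0.56 without that library. Against vehicle it was -0.84 ± 0.42 (edgeR adjusted p = 0.400), and -0.44 without it.

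The partner kinases and mediators differed less. Atr, the kinase of replication stress, had means of 37.0 ± 4.59 CPM in vehicle, 37.1 ± 2.90 in R788 + anti-PDL1 and 25.8 ± 10.6 in Rad + R788 + anti-PDL1 (SD, n = 3 each). Its irradiated tumors read 13.7, 33.8 and 29.7 CPM, so the lower mean came mostly from replicate 1. Chek1, the checkpoint kinase that Atr activates, ranged from 30.3 to 33.2 CPM in vehicle, from 31.9 to 40.6 in R788 + anti-PDL1 and from 28.2 to 36.3 in Rad + R788 + anti-PDL1, and all 3 groups overlapped. Trp53bp1, which holds back end resection, read 87.5, 141 and 155 CPM in vehicle, 166.5, 116 and 137 in R788 + anti-PDL1, and 51.8, 134 and 104 in Rad + R788 + anti-PDL1. Only replicate 1 of the irradiated group was outside the vehicle range. Rnf168, a ubiquitin ligase that prepares chromatin for Trp53bp1, read 60.8, 60.3 and 54.0 CPM in vehicle, 41.4, 49.0 and 50.3 CPM in R788 + anti-PDL1, and 71.9, 66.6 and 53.2 CPM in Rad + R788 + anti-PDL1. It was higher with radiation than without, with no overlap between the treated groups, by a log2 difference of 0.45 ± 0.18 (edgeR adjusted p = 0.253).

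In the complex that first binds the break, Rad50, its structural arm, read 73.9, 78.3 and 73.5 CPM in vehicle, 69.7, 71.0 and 64.8 in R788 + anti-PDL1, and 24.1, 65.7 and 56.0 in Rad + R788 + anti-PDL1. Every tumor of both treated groups was below every vehicle tumor, the first irradiated tumor by the widest gap. The other 2 subunits did not separate the groups, with Mre11a, the nuclease, between 46.7 and 64.5 CPM and Nbn, the adaptor that recruits Atm, between 25.6 and 39.3 CPM over all 9 tumors. Chek2, the checkpoint kinase below Atm, ranged from 17.4 to 47.2 CPM, and Rnf8, the ubiquitin ligase that acts before Rnf168, from 19.2 to 47.1 CPM, also with overlap between all groups.

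Among the recombination genes, Brca1 differed most between the irradiated tumors and each other group. Brca1 (chr11:101488764-101551955, minus strand), which promotes resection and works with Palb2 and Brca2, had 68.5, 103 and 90.98 CPM in vehicle. It had 113, 65.7 and 96.3 CPM in R788 + anti-PDL1, and 26.9, 57.9 and 44.5 CPM in Rad + R788 + anti-PDL1. Every irradiated tumor was below every other tumor, while the vehicle and R788 + anti-PDL1 tumors overlapped.

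The log2 difference of Brca1 was -1.09 ± 0.32 against R788 + anti-PDL1 (edgeR adjusted p = 0.222, DESeq2 adjusted p = 0.0428) and -1.02 ± 0.32 against vehicle (edgeR adjusted p = 0.271). Without Rad + R788 + anti-PDL1 replicate 1 these values were -0.83 and -0.74. Over the 14 alternatives in each comparison it stayed below 0, from -1.36 to -0.83 and from -1.30 to -0.74.

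Of Brca1's partners, Bard1 and Brip1 also lay below vehicle in these tumors. Bard1, with which Brca1 forms a ubiquitin ligase, read 26.8, 33.4 and 33.9 CPM in vehicle, 27.8, 18.8 and 26.3 in R788 + anti-PDL1, and 9.74, 22.1 and 23.4 in Rad + R788 + anti-PDL1. Brip1, the helicase that binds the Brca1 tail, read 22.97, 36.6 and 36.6 CPM in vehicle, 33.4, 26.9 and 32.2 in R788 + anti-PDL1, and 17.2, 20.04 and 21.7 in Rad + R788 + anti-PDL1. Both lay wholly below vehicle in the irradiated tumors, and Brip1 also lay wholly below R788 + anti-PDL1. The log2 difference from vehicle was -0.77 ± 0.33 for Bard1 (edgeR adjusted p = 0.365) and -0.71 ± 0.23 for Brip1 (edgeR adjusted p = 0.285). Without the first irradiated library they were -0.43 and -0.59. Brca2, the product of a breast cancer susceptibility gene, and Palb2, which joins it to Brca1, had no such pattern. Brca2 read 32.5, 37.5 and 52.3 CPM in vehicle, 34.9, 41.1 and 37.6 in R788 + anti-PDL1, and 61.4, 44.2 and 40.9 in Rad + R788 + anti-PDL1. Palb2 ranged from 7.63 to 29.1 CPM over all 9 tumors, with overlap between every pair of groups.

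Rad51c, which acts in strand pairing, had the lowest unadjusted p of the recombination genes in Rad + R788 + anti-PDL1 against vehicle. It read 15.7, 15.9 and 17.4 CPM in vehicle, 12.04, 10.3 and 11.9 CPM in R788 + anti-PDL1, and 6.49, 11.8 and 7.81 CPM in Rad + R788 + anti-PDL1. Both treated groups lay wholly below vehicle and overlapped each other. The log2 difference from vehicle was -0.90 ± 0.27 with radiation (edgeR adjusted p = 0.265), and -0.71 without replicate 1 of that group.

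Rad51d, a partner in the same complex, read 39.7, 31.7 and 32.5 CPM in vehicle, 25.7, 13.3 and 25.7 CPM in R788 + anti-PDL1, and 16.4, 22.2 and 23.7 CPM in Rad + R788 + anti-PDL1. It too was wholly below vehicle in both treated groups, by log2 differences of -0.68 ± 0.28 (edgeR adjusted p = 0.386) and -0.74 ± 0.28 (edgeR adjusted p = 0.336). Without R788 + anti-PDL1 replicate 2, the lowest of its group, the first of these was -0.43. Rad51b, another member of the complex, lay between 9.79 and 10.4 CPM in vehicle, between 9.29 and 11.2 CPM with radiation, and between 7.34 and 8.14 CPM in R788 + anti-PDL1. Of these genes, Rad51b overlapped vehicle in the irradiated tumors, and Rad51c and Rad51d did not.

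Blm, a helicase that unwinds recombination intermediates, had the smallest spread of the genes that separated the irradiated tumors. It read 47.1, 57.4 and 52.8 CPM in vehicle, 55.6, 52.9 and 51.4 CPM in R788 + anti-PDL1, and 41.7, 39.7 and 40.5 CPM in Rad + R788 + anti-PDL1. The 3 irradiated tumors had a coefficient of variation of 2.56% and were below all others, and the first of them did not stand apart. The log2 difference was -0.37 ± 0.16 against vehicle (edgeR adjusted p = 0.373) and -0.39 ± 0.16 against R788 + anti-PDL1 (edgeR adjusted p = 0.254). Rbbp8 (CtIP), which starts end resection, was the recombination gene with the lowest unadjusted p in R788 + anti-PDL1 against vehicle. It read 71.5, 67.8 and 61.99 CPM in vehicle, 29.9, 62.5 and 34.0 CPM in R788 + anti-PDL1, and 55.1, 52.4 and 52.5 CPM in Rad + R788 + anti-PDL1. R788 + anti-PDL1 replicate 2 overlapped the vehicle range, and the log2 difference was -0.67 ± 0.27 (edgeR adjusted p = 0.368), or -1.07 without that library.

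Rad54l and Rad52 were also below vehicle in every irradiated tumor. Rad54l, a motor that helps strand exchange, ran from 65.8 to 74.2 CPM in vehicle and from 68.6 to 71.4 in R788 + anti-PDL1, and read 41.1, 61.4 and 59.96 in Rad + R788 + anti-PDL1. Rad52, which anneals single strands, ran from 11.4 to 12.9 CPM in vehicle and from 13.1 to 15.3 in R788 + anti-PDL1, and read 5.24, 11.16 and 11.19 in Rad + R788 + anti-PDL1, the last of these just under the lowest vehicle tumor. The resection nuclease Exo1 (39.98 to 116 CPM over all tumors) and the recombination genes Xrcc2 (11.9 to 23.02 CPM) and Xrcc3 (9.88 to 26.7 CPM) overlapped between all groups.

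**Figure D2:**
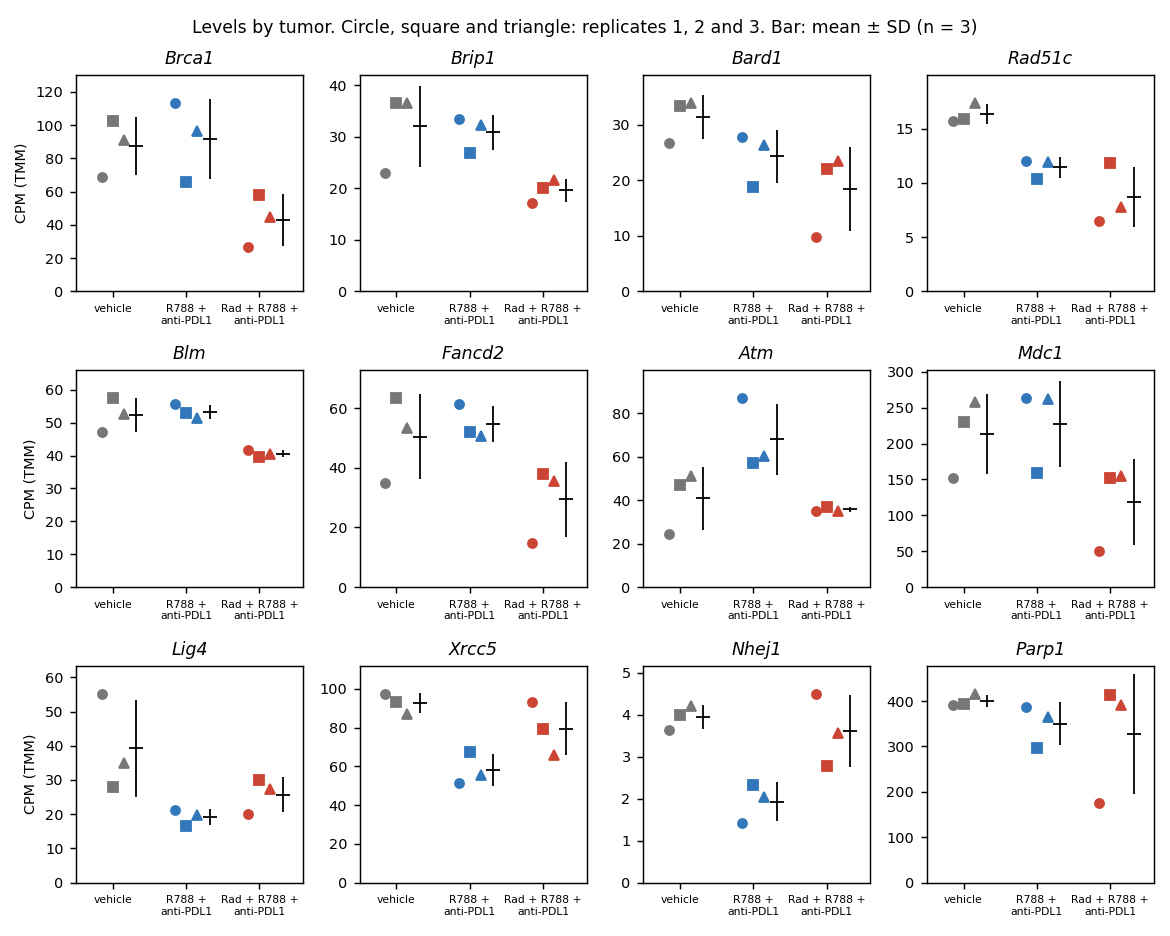
CPM, scaled by the trimmed mean of M values, of 12 repair genes in each tumor, with the mean ± SD (n = 3) of each group beside the points. The 3 irradiated tumors lie below all others for Brca1, Brip1 and Blm, the R788 + anti-PDL1 tumors lie above all others for Atm and below all vehicle tumors for Lig4, Xrcc5 and Nhej1, and the circle of the irradiated group is far below its fellows for Parp1, Mdc1 and Fancd2.

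The end-joining genes did not share 1 order of the groups. Lig4, Xrcc5, Nhej1, Xrcc6 and Xrcc4 had their lowest group mean in R788 + anti-PDL1. Prkdc, Parp1 and Dclre1c had theirs with radiation, and Polq had its lowest in vehicle. For Parp1, Dclre1c, Polq and Xrcc6 that order rested on the first irradiated library. Polq read 24.9 and 24.8 CPM in the remaining irradiated tumors, below its vehicle mean of 29.5. Xrcc6 read 104 and 95.6 CPM there, on either side of its R788 + anti-PDL1 mean of 101.9. Without the first irradiated library the median log2 fold change of the 9 genes from vehicle was -0.22 with radiation, beside -0.19 in R788 + anti-PDL1. Lig4 (chr8:9969049-9977686, minus strand), the ligase that seals the ends, had 55.2, 27.8 and 34.9 CPM in vehicle, 21.3, 16.6 and 19.7 CPM in R788 + anti-PDL1, and 19.99, 29.9 and 27.3 CPM in Rad + R788 + anti-PDL1. The R788 + anti-PDL1 tumors were wholly below vehicle, and the irradiated tumors overlapped both groups. The log2 difference of R788 + anti-PDL1 from vehicle was -1.03 ± 0.28 (edgeR adjusted p = 0.157, DESeq2 adjusted p = 0.0396). It was -0.61 ± 0.28 in Rad + R788 + anti-PDL1 (edgeR adjusted p = 0.385). Vehicle replicate 1 was the highest of all 9 tumors, and without it these differences were -0.69 and -0.27.

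Xrcc5 (chr1:72307421-72394952, plus strand) encodes Ku80, which binds the broken end with Ku70, the product of Xrcc6. Xrcc5 read 97.4, 93.4 and 87.0 CPM in vehicle, 51.5, 67.3 and 55.4 CPM in R788 + anti-PDL1, and 93.4, 79.2 and 65.7 CPM in Rad + R788 + anti-PDL1. R788 + anti-PDL1 was wholly below vehicle by a log2 difference of -0.67 ± 0.19 (edgeR adjusted p = 0.181). It was 0.45 ± 0.19 higher with radiation than without (edgeR adjusted p = 0.261), though 1 irradiated tumor lay below the highest R788 + anti-PDL1 tumor. Xrcc6 overlapped between all groups. It read 121, 92.1 and 106 CPM in vehicle, 119.8, 78.2 and 108 CPM in R788 + anti-PDL1, and 199, 104 and 95.6 CPM in Rad + R788 + anti-PDL1, so that the partners of 1 dimer were ordered differently at the RNA level.

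Nhej1 (XLF), which aligns the ends for the ligase, was the least abundant repair gene by CPM. It read 3.64, 4.00 and 4.22 CPM in vehicle, 1.41, 2.33 and 2.05 CPM in R788 + anti-PDL1, and 4.50, 2.79 and 3.56 CPM in Rad + R788 + anti-PDL1, from counts of 32 to 89 a library. The R788 + anti-PDL1 tumors were below all others. The log2 difference from vehicle was -1.03 ± 0.36 (edgeR adjusted p = 0.288), and with radiation Nhej1 was higher than in R788 + anti-PDL1 by 0.90 ± 0.36 (edgeR adjusted p = 0.250), or 0.72 without the first irradiated library.

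Prkdc, the kinase that Ku recruits, read 21.7, 38.0 and 35.4 CPM in vehicle, 26.1, 29.9 and 28.7 in R788 + anti-PDL1, and 13.2, 26.6 and 23.3 in Rad + R788 + anti-PDL1. The irradiated tumors overlapped the vehicle tumors through the lowest vehicle value. Polq, the polymerase of the alternative end-joining route, read 21.0, 34.6 and 33.0 CPM in vehicle, 33.4, 25.8 and 31.1 in R788 + anti-PDL1, and 46.5, 24.9 and 24.8 in Rad + R788 + anti-PDL1, with all groups overlapping. Parp1, which binds breaks and serves that same route, was the most abundant of the 39 genes per kilobase of exon, at 75.6 CPM per kb in vehicle. Its tumors read 392, 393 and 416 CPM in vehicle, 388, 297 and 366 CPM in R788 + anti-PDL1, and 175, 414 and 391 CPM in Rad + R788 + anti-PDL1. The mean of 327 ± 132 CPM in the irradiated group (SD, n = 3) therefore describes none of its tumors, as 1 library was far below the other two. Xrcc4, the partner of Lig4, was the least abundant per kilobase, at 1.26 CPM per kb in vehicle, and ran from 3.57 to 8.78 CPM over all tumors. Dclre1c (Artemis), the nuclease that opens hairpin ends, ran from 16.1 to 20.1 CPM in R788 + anti-PDL1, above vehicle at 7.90 to 15.3, and read 5.24, 12.1 and 18.6 in Rad + R788 + anti-PDL1.

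With all libraries included, the Fanconi genes did not share 1 direction in either treated group against vehicle. Fancd2 (chr6:113531682-113597017, plus strand), which is loaded with ubiquitin at crosslinks, read 34.95, 63.3 and 53.2 CPM in vehicle, 61.5, 52.0 and 50.6 CPM in R788 + anti-PDL1, and 14.8, 37.9 and 35.5 CPM in Rad + R788 + anti-PDL1. The irradiated tumors were wholly below R788 + anti-PDL1, by a log2 difference of -0.89 ± 0.35 (edgeR adjusted p = 0.246), or -0.57 without the first irradiated library. Vehicle replicate 1 lay within the irradiated range. Fanci, the partner of Fancd2, read 40.9, 38.7 and 34.6 CPM in vehicle, 35.9, 30.7 and 31.9 CPM in R788 + anti-PDL1, and 18.1, 33.6 and 26.2 CPM in Rad + R788 + anti-PDL1. The irradiated tumors were wholly below vehicle, by a log2 difference of -0.55 ± 0.24 (edgeR adjusted p = 0.365), and by -0.32 without the first irradiated library. Fanci in R788 + anti-PDL1 differed from vehicle by -0.21 ± 0.23 (edgeR adjusted p = 0.802), and by -0.14 without vehicle replicate 1. Fanca and Fancc, of the core complex that attaches the ubiquitin, were highest in the first irradiated tumor, at 71.6 and 32.8 CPM. In the remaining irradiated tumors Fanca read 28.0 and 31.7 CPM and Fancc 9.79 and 9.86 CPM. Fanca ran from 28.3 to 53.4 CPM in vehicle and from 42.7 to 50.7 in R788 + anti-PDL1. Fancc ran from 10.15 to 13.4 CPM in vehicle and from 11.4 to 13.6 in R788 + anti-PDL1. The higher mean of both genes with radiation than in vehicle thus rested on the first irradiated library.

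**Figure D3:**
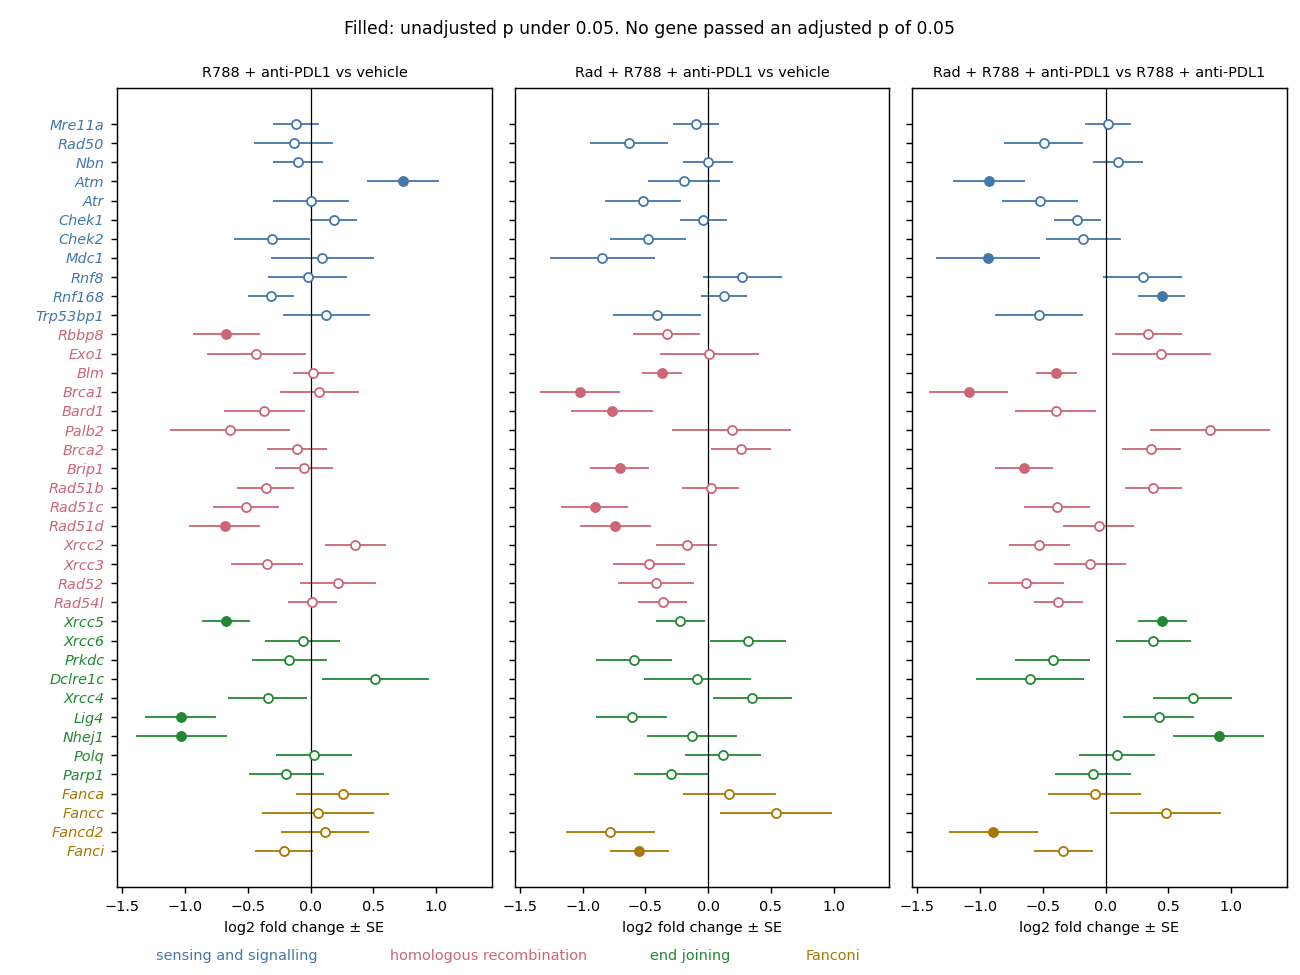
Log2 fold change ± SE from edgeR of the 39 genes, coloured by role, in the 3 comparisons, with filled points for an unadjusted p under 0.05. Filled points on the lower side are 5 of 39 for R788 + anti-PDL1 against vehicle, 7 for Rad + R788 + anti-PDL1 against vehicle and 6 between the treated groups, and no gene passed an adjusted p of 0.05.

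The first irradiated library departed from the other two in the repair genes as in the rest of the table. Of the 39 genes, 9 were more than 1 log2 unit below the mean of the other two irradiated tumors and 5 more than 1 above. Over all genes tested the shares were 23.5% below and 17.2% above. The 9 were Rad50, Atr, Mdc1, Trp53bp1, Bard1, Rad52, Dclre1c, Parp1 and Fancd2, and the 5 were Rnf8, Exo1, Palb2, Fanca and Fancc. The same count was 1 for replicate 3 of that group and 0 for each of the other 7 libraries. Across all genes with 1 GENCODE identifier, the difference ran against exon length with a Spearman rho of -0.349, and over the 39 repair genes rho was -0.006. These are descriptions across genes, which are not independent replicates. Whether the tumor or the library preparation gave this departure was not tested.

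**Figure D4:**
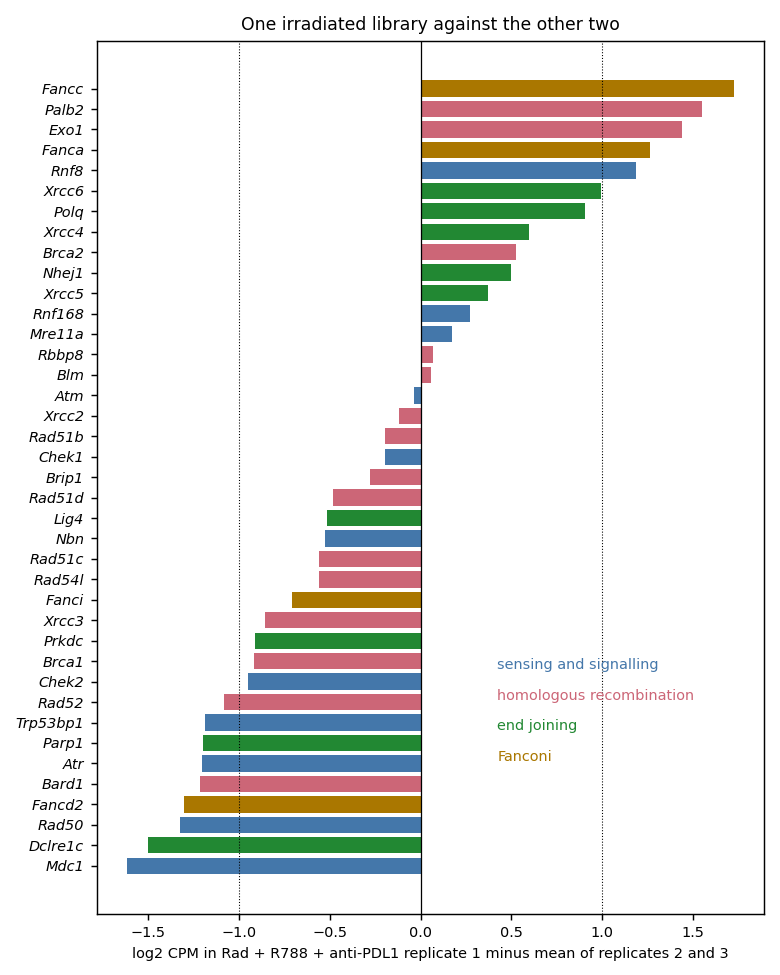
Difference in log2 CPM between replicate 1 of Rad + R788 + anti-PDL1 and the mean of its replicates 2 and 3, for each of the 39 repair genes in order of size and coloured by role, with dotted lines at -1 and 1. The bars run from -1.61 for Mdc1 to 1.73 for Fancc, and Blm and Atm are near 0.

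Other genes of the same pathways gave no call either. Of 61 further genes listed by role, 60 were in the table (the other symbol was misspelled in the list) and 59 passed the filter on low counts, and edgeR called 0 in each comparison. At an unadjusted p under 0.05, 1 was higher and 5 were lower in Rad + R788 + anti-PDL1 than in vehicle, beside 7.71% and 5.51% of all genes. Of the 59, 9 were wholly below vehicle, beside 11.2% of all genes. H2afx, which encodes the histone H2A.X, read 109.5, 46.1 and 52.9 CPM in vehicle, 56.9, 116.5 and 72.9 in R788 + anti-PDL1, and 342, 147 and 127 in Rad + R788 + anti-PDL1. It was above both other groups in every irradiated tumor, by a log2 difference of 1.56 ± 0.48 from vehicle (edgeR adjusted p = 0.268), and of 1.01 ± 0.40 without the first irradiated library (edgeR adjusted p = 0.259). Rpa1, the large subunit of the protein that coats resected DNA, read 304, 286 and 282 CPM in vehicle, 265, 173 and 245 in R788 + anti-PDL1, and 171, 177 and 160.2 in Rad + R788 + anti-PDL1. Its log2 difference from vehicle was -0.78 ± 0.20 with radiation (edgeR adjusted p = 0.203). Wee1, which restrains entry into mitosis, and Rif1, the effector of Trp53bp1, were wholly below both other groups in the irradiated tumors. Wee1 had 23.2, 34.6 and 31.8 CPM there against 46.6 to 52.6 CPM in vehicle, and Rif1 39.3, 72.8 and 83.8 CPM against 103.5 to 129.9 CPM.

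Cell-cycle genes, p53 targets and markers of other cells were set beside the repair genes. Of 25 cell-cycle genes, 9 were wholly below vehicle in Rad + R788 + anti-PDL1 and 12 in R788 + anti-PDL1, shares of 36% and 48% beside 11.2% and 16.5% of all genes. edgeR called 0 in each. Their summed level ran from 5042 to 5147 CPM in vehicle, from 3886 to 4754 in R788 + anti-PDL1 and from 4012 to 4953 in Rad + R788 + anti-PDL1. Mki67, a marker of cycling cells, overlapped between all groups, at 256 to 438 CPM in vehicle, 329.5 to 390.0 in R788 + anti-PDL1 and 248 to 355 in Rad + R788 + anti-PDL1. Pcna, the replication clamp, ran from 329.9 to 435 CPM in vehicle, from 202 to 285 in R788 + anti-PDL1 and from 290.0 to 537 in Rad + R788 + anti-PDL1. The part of cell cycling in the repair gene levels was not tested. Of the 20 p53 targets none was called by edgeR, and they did not share 1 direction. In R788 + anti-PDL1, 5 lay wholly above vehicle and 4 wholly below, beside 13.6% and 16.5% of all genes. With radiation, 2 lay wholly above vehicle and 2 wholly below, beside 9.27% and 11.2%. Cdkn1a, which encodes the cell-cycle inhibitor p21, read 19.4, 31.2 and 27.5 CPM in vehicle, 13.4, 12.96 and 10.8 CPM in R788 + anti-PDL1, and 24.7, 24.9 and 31.97 CPM in Rad + R788 + anti-PDL1. Cdkn1a was lowest in R788 + anti-PDL1 with no overlap, and the irradiated tumors were within or just above the vehicle range. Mdm2, which encodes the p53 inhibitor, overlapped between all groups, at 34.2 to 59.7 CPM in vehicle and 16.4 to 42.5 CPM in Rad + R788 + anti-PDL1. The summed level of 6 macrophage markers ran from 139 to 234 CPM in vehicle, from 287 to 301 in R788 + anti-PDL1 and from 147 to 881 in Rad + R788 + anti-PDL1. The irradiated sums were 238, 147 and 881 CPM in replicates 1 to 3, so the top value came from replicate 3 alone. The summed level of 6 T cell markers ran from 1.70 to 3.97 CPM, from 4.13 to 23.8 and from 1.84 to 31.7 in the same order. With radiation these sums were 1.84, 6.70 and 31.7 CPM in replicates 1 to 3, with the top again in replicate 3. Most of the sum in R788 + anti-PDL1 replicates 1 and 3 was Cd4. It read 22.9, 2.03 and 12.2 CPM in R788 + anti-PDL1 replicates 1 to 3, beside sums of 23.8, 4.13 and 13.4. The other 5 T cell markers were below 1 CPM in each of these tumors. The 3 erythroid markers summed to 133 to 428 CPM in vehicle, 38.98 to 68.1 in R788 + anti-PDL1 and 33.7 to 121 in Rad + R788 + anti-PDL1, and all 3 were wholly below vehicle in both treated groups. The 3 neutrophil markers were wholly below vehicle in R788 + anti-PDL1. Their sum with radiation was 2.14, 2.23 and 15.9 CPM in replicates 1 to 3. The keratinocyte marker Krt5 read 7.51, 3.05 and 4.66 CPM in vehicle, 1.90, 63.1 and 22.7 in R788 + anti-PDL1, and 75.01, 54.1 and 46.5 in Rad + R788 + anti-PDL1. Krt14, the other keratinocyte marker listed, went the other way. It read 0.22, 1.84 and 2.36 CPM in vehicle, 0 in each R788 + anti-PDL1 tumor, and 0, 0.10 and 0 in Rad + R788 + anti-PDL1. The part of these cells in the repair gene levels was not tested.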

How the data were processed

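Per the labels and the study's methods, the authors aligned reads with STAR 2.6.1d to mm10 and quantified genes with Salmon 1.4.0, and deposited estimated counts per gene symbol as whole numbers. The labels name polyA enrichment and paired-end NovaSeq reads, whereas the methods name single-read HiSeq2000, so the read layout is unsettled, and strandedness was not given in the sources used here. Of the 39 genes, 17 share exon sequence with another gene in GENCODE M21 (15 on the other strand and 3 on the same strand, 1 of them on both), Trp53bp1, Rad54l, Fancd2, Fanci and Rbbp8 among them, and their counts are uncertain there.

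Counts were filtered with filterByExpr at a minimum count of 10, scaled by the trimmed mean of M values (TMM) and fitted over all 9 libraries with edgeR 4.0.16 (quasi-likelihood, robust) in R 4.3.3, with Benjamini-Hochberg adjustment and a threshold of 0.05. SE was the log2 fold change divided by the square root of its F. Totals ran from 18276683 to 23397886 counts. Alternatives were DESeq2 1.42.0, limma 3.58.1 (voom, with and without library weights), other scalings, no filter, 6 libraries, a replicate block and each library left out. The code was tested on simulated data.

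The genes, roles and lists were chosen with earlier results of these data known. By the rule fixed for naming, per-tumor values were given for the gene with the lowest p in each role and comparison and for 12 core genes. Genes at an unadjusted p under 0.05 or without overlap between groups, and Xrcc6, Palb2, Fanca and Fancc, were added after their values were seen, and the others are given by range.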

Additional observations from a re-analysis of the deposited data

How the results depend on the processing

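No repair gene was called by edgeR under any other scaling, without the filter, with the 6 libraries of a comparison alone, with a replicate block, or with any 1 library left out, nor by limma-voom. In the order R788 + anti-PDL1 against vehicle, Rad + R788 + anti-PDL1 against vehicle, and the treated groups against each other, DESeq2 called 1, 0 and 1 repair genes (726, 555 and 646 of all genes). limma-voom with library weights called 9, 7 and 11 (4835, 1993 and 3080 of all genes). Limma-voom alone called 12 and 8 of all genes in the last 2 comparisons, the unfiltered fit 199, 70 and 24, and the fit of 6 libraries 594, 1 and 0, against 108, 7 and 1 in edgeR's fit. The cause of these differences was not tested. The 25 log2 differences of repair genes with an unadjusted p under 0.05, or with the lowest p of a role, gave 350 values over 14 alternatives each, of which 350 kept their direction and 20 passed the threshold. Of all 117 differences (39 genes in 3 comparisons), 41 changed direction under at least 1 alternative, such as those of Exo1 and Nbn in the irradiated group against vehicle.

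Median log2 fold changes by role moved by more than the spread between tumors as follows. With upper-quartile scaling the end-joining median of R788 + anti-PDL1 against vehicle was -0.11. With library weights the irradiated group against vehicle had -0.27 for end joining and -0.44 for Fanconi genes, and between the treated groups the medians were -0.22 for recombination, 0.11 for end joining and -0.41 for Fanconi genes. With 1 library left out, medians for R788 + anti-PDL1 against vehicle ran from -0.32 to -0.16 for recombination (lowest in size without vehicle replicate 3) and from -0.36 to -0.17 for end joining (-0.36 without vehicle replicate 1). For the irradiated group against vehicle they ran from -0.45 to -0.086 for sensing (-0.45 without vehicle replicate 1), from -0.22 to -0.087 for end joining and from -0.34 to -0.080 for Fanconi genes (-0.22 and -0.34 without Rad + R788 + anti-PDL1 replicate 1). Between the treated groups they ran from -0.38 to -0.20 for recombination, from 0.21 to 0.42 for end joining and from -0.45 to -0.12 for Fanconi genes, with -0.20, 0.21 and -0.45 without that library. With 1 library left out, edgeR called from 0 to 75 of all genes in the first comparison, from 1 to 57 in the second and from 0 to 21 in the third, and 57 and 21 came without Rad + R788 + anti-PDL1 replicate 1. The common dispersion was 0.146 with all 9 libraries and 0.087 without that one.

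The replicate block called 0, 3 and 0 of all genes and 0 repair genes. Deviations of same-numbered libraries from their group means correlated between -0.05 and 0.23, with 2 of 9 pairs above 0.1, so the numbers were not taken to pair the tumors.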
